A study of Mus musculus with 4 samples.

Results

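The Notch pathway was described here by 41 genes chosen by symbol: the receptors, their ligands, the fringe enzymes that modify the receptors, the enzymes that process them, and the Hes and Hey factors that act downstream. All 41 were found among the 24421 genes of the expression table, and 37 of them had a mean of at least 1 RPKM (reads per kilobase of exon, scaled to library size) in either genotype. The cells were GFP+ cells sorted from dissociated neural tubes of E11.5 mouse embryos. Both groups carried the *Prdm13* GFP allele, a GFP knock-in that disrupts *Prdm13*, so GFP marked the *Prdm13* lineage in each. The controls were heterozygous (*Prdm13* GFP/+, 2 libraries) and the mutants homozygous (*Prdm13* GFP/GFP, 2 libraries), and there was no wild-type group. The RNA of several embryos was combined into 1 pool per genotype. The 2 libraries of a genotype came from the same pool and are technical replicates, so each SD and each p below covers library preparation and sequencing and no difference between embryos.

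Notch signalling passes between neighbouring cells. A Delta or Jagged ligand on a cell about to become a neuron binds a Notch receptor on its neighbour, ADAM proteases and gamma-secretase release the intracellular part of the receptor, and this part joins RBPJ and a Mastermind coactivator on DNA to switch on Hes and Hey genes. The Hes and Hey proteins repress proneural bHLH genes and keep the neighbour a progenitor. In the neural tube the proneural bHLH factors in turn activate Delta genes, and fringe enzymes add sugars to the receptor that change which ligands it answers to.

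The letters that RBPJ is known to bind stand close to the start of several of these genes, and 3 promoters are shown because their genes went separate ways in the data: *Hes5* passed the adjusted p, *Hey2* also passed the fold, and *Lfng* passed neither. Each sequence is the 250 bases before the transcription start in RefSeq on GRCm38, written 5′ to 3′ on the gene's strand, and capitals mark GTGGGAA or its reverse complement. They lie at chr4:154960673-154960922 (plus strand) for *Hes5*, chr10:30842784-30843033 (minus strand) for *Hey2* and chr5:140607091-140607340 (plus strand) for *Lfng*. The RefSeq span of *Hes5* begins upstream of its start used here, at 154960626, so the bases shown lie inside that span.
Hes5: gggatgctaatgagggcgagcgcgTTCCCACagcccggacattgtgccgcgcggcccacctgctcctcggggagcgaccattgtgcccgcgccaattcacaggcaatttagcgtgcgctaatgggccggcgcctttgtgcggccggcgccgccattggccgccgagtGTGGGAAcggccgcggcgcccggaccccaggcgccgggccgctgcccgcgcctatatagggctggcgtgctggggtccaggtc
Hey2: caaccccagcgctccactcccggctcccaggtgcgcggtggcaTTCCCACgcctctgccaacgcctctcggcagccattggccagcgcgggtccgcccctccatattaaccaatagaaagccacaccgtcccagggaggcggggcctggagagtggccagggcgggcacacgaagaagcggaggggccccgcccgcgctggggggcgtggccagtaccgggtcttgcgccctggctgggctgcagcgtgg
Lfng: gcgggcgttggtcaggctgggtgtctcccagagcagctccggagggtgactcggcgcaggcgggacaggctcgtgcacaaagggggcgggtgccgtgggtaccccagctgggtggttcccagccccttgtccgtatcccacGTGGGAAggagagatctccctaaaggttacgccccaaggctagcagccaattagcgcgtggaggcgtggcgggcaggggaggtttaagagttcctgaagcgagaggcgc
The first letter of the matches stood 226 and 83 bases before the start of *Hes5*, 207 before that of *Hey2* and 109 before that of *Lfng*, where it overlaps an E-box (CANNTG). RefSeq promoters were matched for 32 of the 41 genes (40 promoters); *Mfng*, *Hes1*, *Hey1* and *Heyl* were not among them. GTGGGAA, searched on both strands, was in 5 of the 40 promoters (*Hes5*, *Hes7*, *Hey2*, *Lfng* and *Psen2*), against 5.42% of all 32851 promoters of this length. A CANNTG E-box was in 25 of the 40, or 62.5%, against 66.2% of all. A match is a run of letters and was not tested as a binding site.

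The RPKM values were compared between genotypes with limma on log2(RPKM + 0.1), two-sided, over the 12046 genes with a mean of at least 1 RPKM in either genotype, with Benjamini-Hochberg adjustment over all of them. Calls needed both an adjusted p under 0.05 and a 1.5-fold difference or more. A difference on this scale understates the change of genes near 1 RPKM. With 2 libraries a side no exact permutation test can reach 0.05, so the p-values rest on the spread that limma shares across genes. Reads solved from the RPKM steps summed to 11413976 to 18155854 per library. *Prdm13* itself stood at 114 and 127 RPKM in the control libraries and at 310 and 324 RPKM in the mutant libraries. Reads of the disrupted transcript still count toward it, so this level does not measure loss of the protein.

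Of the 37 Notch pathway genes tested, 4 were called higher in *Prdm13* GFP/GFP: the fringe gene *Mfng* and the effector genes *Hey1*, *Hey2* and *Heyl*. That is 10.8% of them, where 3.65% of all genes tested were called higher. Of these 4, *Hey2* and *Heyl* passed the filter only through the mutants, where they are high, so the share of calls is given as a description only. None was called lower, where 2.67% of all genes were, although limma put 6 members lower at an unadjusted p under 0.05. The voom form of limma on solved reads called none lower either. Whatever their fold, 10 members passed the adjusted p higher in the mutants and 4 lower, that is 27.0% and 10.8%, against 9.76% and 9.95% of all genes. Both mutant libraries lay above both control libraries for 21 members (56.8%, against 31.7% of all genes), and below both for 7 (18.9%, against 30.3%). The 10 and the 21 include *Hey2* and *Heyl*, and the members were chosen with earlier results of these data known. These shares are thus a description only as well. The median log2 difference of the 37 was 0.12, and that of all genes 0.010. The differences ran from -0.52 to 2.08, and *Mfng* was the only tested member past a 2-fold difference. With any 1 library left out, only *Mfng* and *Hey1* remained called higher, and 2 to 4 members passed the adjusted p higher and 0 to 2 lower.

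**Figure D1:**
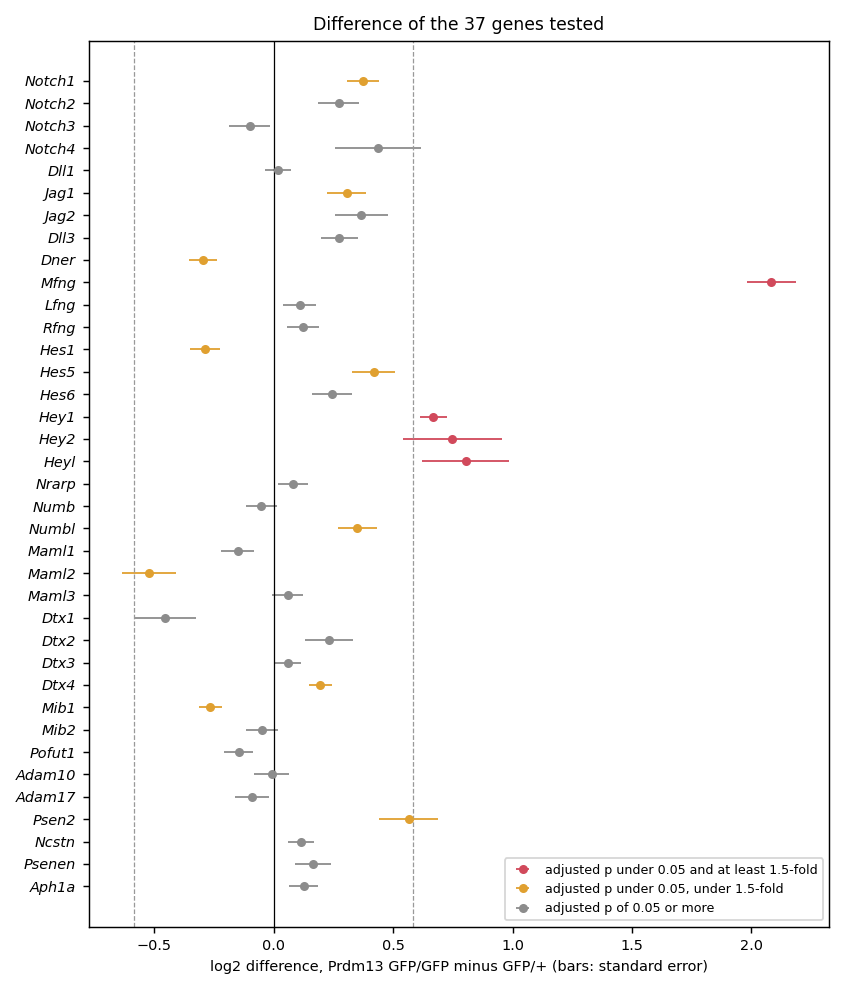
Log2 difference between *Prdm13* GFP/GFP and *Prdm13* GFP/+ for each of the 37 genes tested, with the standard error from limma. Dashed lines mark a 1.5-fold change. *Mfng* at 2.08 stands apart from the other genes, which lie between -0.52 and 0.80.

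The receptors are single-pass membrane proteins that become transcription factors when cleaved. *Notch1* was the most abundant, at 50.7 and 56.5 RPKM in the control libraries and 67.4 and 71.4 RPKM in the mutant ones. The groups did not overlap, and *Notch1* rose by 0.37 on the log2 scale (standard error 0.0656, limma adjusted p = 0.0111), short of the 1.5-fold mark. *Notch3* had 26 and 29.9 RPKM in the controls and 24.6 and 27.5 RPKM in the mutants, and its libraries overlapped (log2 difference -0.10, adjusted p = 0.456). So *Notch1* made up 61.2% ± 0.360 of the summed receptor RPKM in the controls and 67.3% ± 0.610 in the mutants (SD, n = 2 libraries), and *Notch3* 31.9% ± 0.539 and 25.3% ± 0.703. *Notch2* was low in both groups, at 4.67 and 4.88 against 5.52 and 6.07 RPKM (log2 difference 0.27, adjusted p = 0.0697). *Notch4*, a receptor best known from endothelium, had 1.18 and 1.46 against 1.89 and 1.74 RPKM (log2 difference 0.44, adjusted p = 0.143).

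Among the ligands that activate Notch on a neighbour, *Dll1* dominated and did not change detectably. It had 96.2 and 101.8 RPKM in the controls and 97.1 and 103.6 RPKM in the mutants, with overlapping libraries, a log2 difference of 0.020 (standard error 0.0541, adjusted p = 0.825) and a sign that turned in 3 of the alternative settings. Its level is less certain, since 20.5% of its exon bases are shared with *A930024N18Rik* in the GENCODE vM21 annotation. The authors counted on RefSeq exons, where this overlap was not checked. *Dll1* held 90.2% ± 0.484 of the summed RPKM of *Dll1*, *Dll4*, *Jag1* and *Jag2* in the controls and 87.8% ± 0.0292 in the mutants (SD, n = 2 libraries). *Jag1* had 4.34 and 4.70 RPKM against 5.67 and 5.55 RPKM and rose by 0.31 (adjusted p = 0.0456). *Jag2* had 5.52 and 6.65 against 7.37 and 8.35 RPKM and missed the threshold (log2 difference 0.37, adjusted p = 0.0625). Neither Jagged gene overlapped between the genotypes. *Dll4* stayed under the filter, with 8 and 10 reads in the controls and 22 and 23 in the mutants (0.20 and 0.158 against 0.392 and 0.487 RPKM), and was not tested.

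*Dll3* and *Dner* are less usual ligands. *Dll3* stays inside the cell and is known to dampen Notch there, and *Dner* is a neuronal protein with Delta-like repeats. *Dll3* had 76.1 and 83.1 RPKM in the controls and 89.8 and 103.0 RPKM in the mutants (log2 difference 0.27, adjusted p = 0.0524) and narrowly missed the threshold. *Dner* went the other way, from 53.8 and 59.1 RPKM to 46.5 and 45.3 RPKM, and fell by 0.30 on the log2 scale (adjusted p = 0.0175). The ratio of *Dll3* to *Dll1* RPKM was 0.804 ± 0.0182 in the controls and 0.959 ± 0.0489 in the mutants (SD, n = 2 libraries).

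The largest difference among the 37 Notch pathway genes tested was that of a fringe enzyme. Fringes are glycosyltransferases of the Golgi that extend the O-fucose sugars on the EGF repeats of Notch. *Mfng* (gene ID 17305) lies on chromosome 15 at 78755882 to 78773516 in GRCm38. It had 13 and 16.1 RPKM in the controls and 59.4 and 64.0 RPKM in the mutants, with 276 and 541 reads against 1772 and 1605. Each mutant library was far above both controls: the mean was 4.24-fold higher, and the log2 difference was 2.08 (standard error 0.101, adjusted p = 5.69e-05). *Mfng* is among the genes that the study picked out from these libraries, so its difference here is no independent evidence. The study also reported ectopic dorsal *Mfng* RNA by in situ hybridization in embryos of another *Prdm13* mutant allele. It listed PRDM13 ChIP-seq peaks associated with the gene as well. Its paralogs did not pass the test. *Lfng* had 39.8 and 42.7 RPKM against 42.1 and 47.1 RPKM, with overlapping libraries (log2 difference 0.11, adjusted p = 0.324). *Rfng* had 22.8 and 25.0 RPKM against 25.1 and 27.0 RPKM (log2 difference 0.12, adjusted p = 0.259). In the controls *Mfng* was the lowest of the 3 fringe genes, with 18.2% ± 1.41 of their summed RPKM, and in the mutants the highest, with 46.7% ± 0.420 (SD, n = 2 libraries). The summed fringe level rose from 79.7 ± 5.87 to 132 ± 8.09 RPKM with it.

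**Figure D2:**
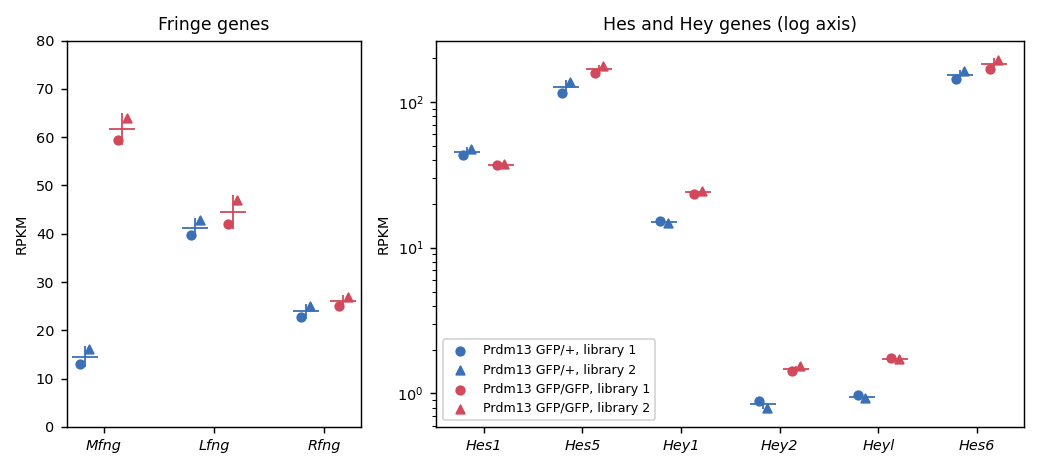
RPKM of the fringe genes (left, linear axis from 0) and of 6 Hes and Hey genes (right, log axis) in each library, with the mean and SD of the 2 libraries of a genotype. *Mfng* passes from the lowest to the highest of the fringe genes, and the 3 Hey genes lie higher in both *Prdm13* GFP/GFP libraries while *Hes1* lies lower.

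The effector genes moved in both directions. *Hes1* and *Hes5* are the classic Notch targets of neural progenitors, and both encode repressors of proneural genes. *Hes5* (gene ID 15208) rose from 115 and 137 RPKM to 159 and 177 RPKM, a log2 difference of 0.42 (standard error 0.0895, adjusted p = 0.0218). *Hes1* (gene ID 15205) fell from 43.1 and 47.7 RPKM to 36.9 and 37.3 RPKM, a log2 difference of -0.29 (standard error 0.0617, adjusted p = 0.0221). Neither gene overlapped between genotypes and neither reached a 1.5-fold change. The ratio of *Hes5* to *Hes1* RPKM was thus 2.67 and 2.86 in the control libraries and 4.31 and 4.73 in the mutant libraries. In the GENCODE vM21 annotation 31.8% of the *Hes5* exon bases are shared with *Gm20421*, which was not checked in the RefSeq exons used for counting. Whether the counting used strand is not given in the sources used here, so the level of *Hes5* is less certain. *Hes6*, which opposes *Hes1* and favours differentiation, was the most abundant member, with 144 and 162 RPKM against 169 and 194 RPKM (log2 difference 0.24, adjusted p = 0.0903).

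All 3 Hey genes, repressors related to Hes that are also known from vessels and heart, were called higher. *Hey1* (gene ID 15213) lies on chromosome 3 at 8663359 to 8667038 in GRCm38. It had 15.2 and 14.9 RPKM in the controls and 23.5 and 24.4 RPKM in the mutants, 1.59-fold more (log2 difference 0.67, standard error 0.0545, adjusted p = 0.000530). It was called under 13 of the 15 alternatives. *Hey2* (gene ID 15214, chromosome 10, 30832359 to 30842783) stood at 0.887 and 0.798 RPKM against 1.43 and 1.53 RPKM, from 26 and 37 reads against 59 and 53 (log2 difference 0.75, standard error 0.206, adjusted p = 0.0484). *Heyl* (gene ID 56198, chromosome 4, 123233556 to 123249870) stood at 0.972 and 0.927 RPKM against 1.74 and 1.73 RPKM, from 51 and 77 reads against 128 and 107 (log2 difference 0.80, standard error 0.182, adjusted p = 0.0262). These 2 genes passed the filter only through the mutants, and they lost the call when any 1 library was left out, with adjusted p from 0.0791 to 0.159 for *Hey2* and from 0.0603 to 0.104 for *Heyl*. With the replicate number as a block *Hey2* was not called either (adjusted p = 0.0564, where the alternatives ran from 0.00803 to 1). The summed level of all 9 Hes and Hey genes came to 342 ± 31.1 RPKM in the controls and 414 ± 31.3 RPKM in the mutants (SD, n = 2 libraries), most of it from *Hes5* and *Hes6*.

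The other Hes genes had few reads. *Hes2* had no reads in the controls and 2 and 1 in the mutants, within the 3 reads per library that a count of 0 allows (counting error only). *Hes7*, a segmentation clock gene of the paraxial mesoderm, had 4 and 12 reads against 6 and 0. *Hes3*, a progenitor factor, had 15 and 27 reads against 12 and 11 (0.709 and 0.806 against 0.404 and 0.440 RPKM), and both mutant libraries lay below both controls. All 3 stayed under the filter and were not tested.

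*Nrarp*, a Notch target that binds the Notch complex and limits it, had 74.6 and 83.4 RPKM in the controls and 84.0 and 82.9 RPKM in the mutants, with overlapping libraries (log2 difference 0.081, adjusted p = 0.403). Its level is uncertain, since 79.4% of its exon bases are shared with *Gm38287* in the GENCODE vM21 annotation. This overlap was not checked in the RefSeq exons used for counting. *Numb* and *Numbl* are endocytic adaptors that oppose Notch inside the cell. *Numbl* rose from 33.3 and 37.7 RPKM to 42.8 and 47.8 RPKM (log2 difference 0.35, adjusted p = 0.0272). *Numb* was lower in level, at 9.76 and 9.91 against 9.81 and 9.18 RPKM, and its libraries overlapped (log2 difference -0.051, adjusted p = 0.627).

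Among the Mastermind coactivators, *Maml2* fell from 4.84 and 4.85 RPKM to 3.68 and 3.05 RPKM (log2 difference -0.52, standard error 0.112, adjusted p = 0.0221). It was the lowest difference among the 37 genes tested, and was called lower only without the first *Prdm13* GFP/GFP library (-0.65). *Maml1* had 13.7 and 15 RPKM against 13.3 and 12.5 RPKM (log2 difference -0.15, adjusted p = 0.186), and *Maml3* 7.59 and 7.65 against 7.82 and 8.07 RPKM (0.059, adjusted p = 0.563). *Maml2* thus passed the adjusted p and its paralogs did not.

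The Deltex genes encode ubiquitin ligases, some of which act on the receptor. *Dtx3* and *Dtx4* were the abundant ones. *Dtx4* rose slightly, from 72.3 and 76.0 RPKM to 83.5 and 86.2 RPKM (log2 difference 0.19, adjusted p = 0.0361). *Dtx3* had 102 and 110 RPKM against 107 and 113 RPKM, with overlapping libraries (adjusted p = 0.492). *Dtx1*, itself a Notch target in other cells, had 5.21 and 6.11 RPKM against 3.68 and 4.55 RPKM and missed the threshold (log2 difference -0.46, adjusted p = 0.0533). *Dtx2* had 7.89 and 9.53 against 9.80 and 10.6 RPKM (log2 difference 0.23, adjusted p = 0.162).

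Mind bomb ligases let the ligand pull on the receptor by having it taken up into the sending cell. *Mib1*, the main one, fell from 30.6 and 31.1 RPKM to 25.7 and 25.6 RPKM (log2 difference -0.27, standard error 0.0488, adjusted p = 0.0131), and its libraries did not overlap. *Mib2* had 9.84 and 10.6 against 9.70 and 10.0 RPKM, with overlapping libraries (adjusted p = 0.647).

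The enzymes that build and cut the receptor differed little. *Pofut1*, which adds the O-fucose that fringe enzymes extend, had 10.7 and 10.9 RPKM against 9.57 and 9.93 RPKM (log2 difference -0.15, adjusted p = 0.146). *Adam10*, a protease that cuts the ligand-bound receptor ahead of gamma-secretase, had 41.5 and 36.4 against 39.6 and 37.7 RPKM (adjusted p = 0.949). *Adam17* had 14.1 and 12.8 against 13 and 12.2 RPKM (adjusted p = 0.416). For the gamma-secretase subunits *Ncstn*, *Psenen* and *Aph1a* both mutant libraries lay above both controls, with log2 differences of 0.12, 0.17 and 0.13 that missed the threshold (adjusted p = 0.183, 0.179 and 0.208). The subunit that moved was *Psen2*, a presenilin of low level here, from 1.95 and 1.83 RPKM to 2.74 and 2.95 RPKM (log2 difference 0.56, standard error 0.124, adjusted p = 0.0240). On the log2(RPKM + 0.1) scale this was short of the 1.5-fold mark of 0.58, and *Psen2* was called with a pseudocount of 0.01 (0.59).

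**Figure D3:**
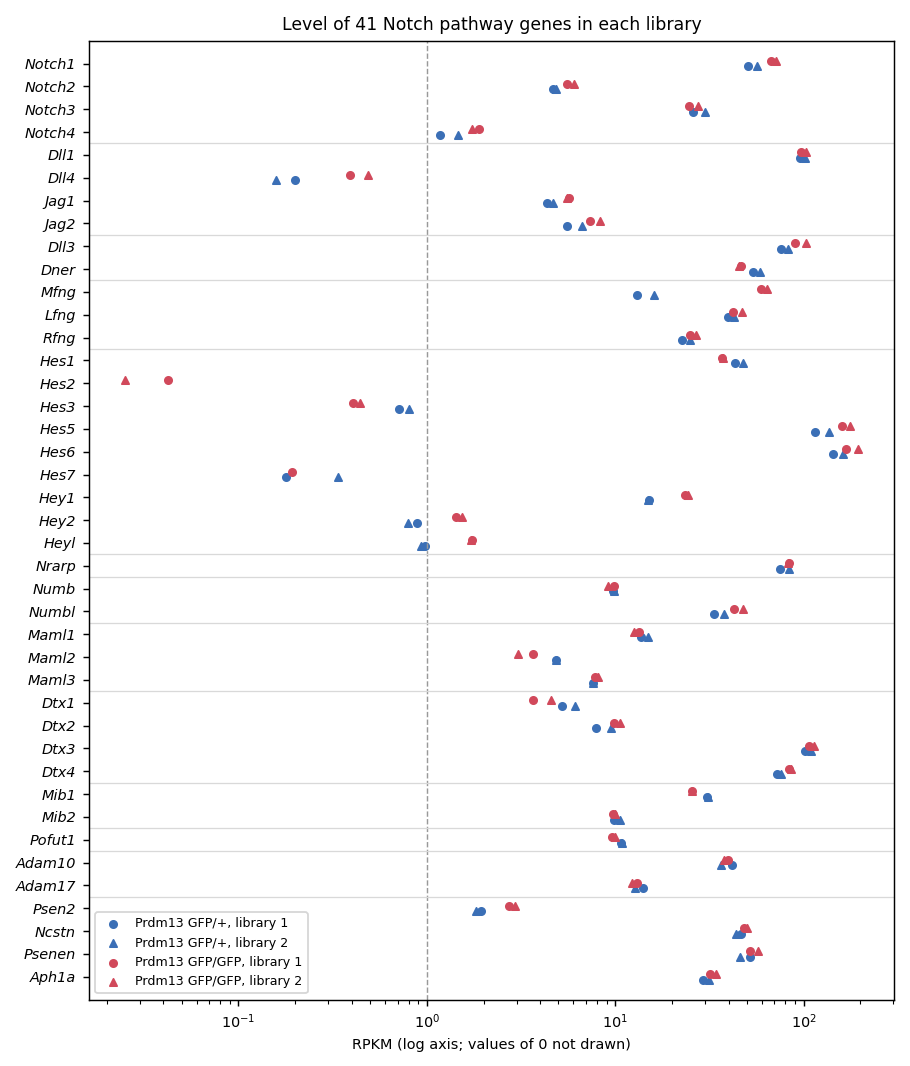
RPKM of the 41 genes in each of the 4 libraries on a log axis, ordered by role from receptors to gamma-secretase. The dashed line marks the filter of 1 RPKM. *Hes6*, *Hes5*, *Dll1*, *Dtx3* and *Dll3* have the highest levels and *Hes2*, *Hes7*, *Dll4* and *Hes3* the lowest, and the libraries of a gene mostly lie close together next to the step of *Mfng*.

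A further list of 44 genes of the pathway's surroundings held 39 that were tested, with a median log2 difference of -0.021. Of these 1 was called higher and 2 lower, where 3.65% and 2.67% of all genes tested were. The adjusted p was passed by 4 of them higher and 5 lower, where 9.76% and 9.95% of all genes passed it. Each of the 3 called genes passed the filter only through the genotype where it is high, so these counts are a description. *Rbpj*, the DNA-binding partner of Notch, was level, at 36.1 and 35.0 RPKM against 36.4 and 34.7 RPKM (adjusted p = 1.00). The Groucho corepressors, through which Hes proteins act, held most of the increases. *Tle1* rose from 12.4 and 13.1 to 18.5 and 18.9 RPKM (log2 difference 0.55, adjusted p = 0.00166) and *Tle3* from 50.6 and 53.5 to 67.0 and 69.8 RPKM (0.39, adjusted p = 0.00391). *Tle2* was called higher from a low level, 0.388 and 0.543 against 1.09 and 1.20 RPKM (adjusted p = 0.0424), while *Tle4* had 18.1 and 18.7 against 16.8 and 17.4 RPKM (adjusted p = 0.226). Called lower were *Chac1*, a glutathione-degrading enzyme reported to block *Notch1* maturation, at 5.12 and 6.54 against 0.588 and 0.885 RPKM (log2 difference -2.84, adjusted p = 0.000411), and the adhesion molecule *Cntn1*, at 2.22 and 2.55 against 0.865 and 0.662 RPKM (-1.53, adjusted p = 0.00417). The coactivators *Ep300* and *Crebbp* also fell, by 0.27 and 0.28.

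Proneural bHLH genes, which Hes factors repress and which activate Delta genes, were read beside the pathway. *Neurog1*, *Neurog2*, *Neurod4* and *Ptf1a* were called higher, with log2 differences of 1.79, 0.81, 1.90 and 1.81, and *Neurod1* rose by 0.42. *Olig3* had a difference of -0.20 (adjusted p = 0.102), and *Atoh1*, with 0.280 to 0.783 RPKM, was not tested.

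Bulk RNA of sorted cells cannot tell fewer cells of a type from less RNA per cell, and marker genes of cell states differed between the genotypes. All 14 genes of a cell cycle list were lower in *Prdm13* GFP/GFP (median -0.19), 6 of them past the adjusted p and none called, among them *Mki67* (-0.56). Of 13 pan-neuronal genes 9 passed the adjusted p higher and 1 lower, with calls higher for *Gap43*, *Nefl*, *Nefm* and *Stmn2* and a call lower for *Snap25*. Of 13 progenitor genes 4 passed it higher and 3 lower, with *Slc1a3* called higher (2.11) and *Sox1* lower (-0.68). Of all 12046 genes tested, 5737 had a negative difference. The adjusted p was passed higher by 9.76% of them and lower by 9.95%, and 3.65% were called higher and 2.67% lower. The neural tube label was checked with 9 dorsal markers, which all passed the filter. *Pax3* among them had 74.0 and 75.2 against 69.9 and 70.0 RPKM, *Ptf1a* was the only one called higher, and *Gsx1*, *Gsx2*, *Gbx1* and *Lbx1* were called lower. The part of these shifts in the Notch values was not tested.

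*Notch4*, *Dll4* and the Hey genes are also genes of vessels, so the vascular markers are given beside them. The summed level of 12 endothelial markers was 7.24 and 9.01 RPKM in the controls and 7.10 and 7.91 RPKM in the mutants, and the groups overlapped. Of these markers 3 were tested and none of the 3 was called, and no marker was above 2.44 RPKM. The highest, *Esam*, had 2.14 and 2.44 RPKM in the controls and 0.995 and 1.58 RPKM in the mutants. It narrowly missed the threshold (log2 difference -0.82, limma adjusted p = 0.0518). Of the 3 tested it was the 1 with a lower level in the mutants, and 2 were higher. Of 8 pericyte and mural markers, 2 were tested, and the summed level of the 8 was 2.97 and 3.23 RPKM against 4.23 and 4.06 RPKM. The higher sum lay in *Pdgfrb*, and without this gene the sum was not higher in the mutants. *Pdgfrb* alone was called higher, from 1.17 and 1.43 to 2.48 and 2.50 RPKM (log2 difference 0.89, adjusted p = 0.0122), while *Rgs5* was at 0.0404 to 0.287 RPKM and *Kcnj8* at 0 to 0.0562 RPKM. The part of mural cells in the higher *Heyl* and *Hey2* was not tested. Of 6 neural crest and glia genes, *Ngfr* was called higher and *Foxd3* lower, and their sum was 30.5 and 37.3 RPKM against 36.3 and 39.8 RPKM. Of 8 mesenchymal, 8 erythroid and 6 microglia and macrophage markers, 1, 3 and 0 reached the filter and were tested, and none of these was called. The summed levels of the lists were 4.18 to 5.55, 47.2 to 49.7 and 0.214 to 1.15 RPKM, with 3 of the erythroid markers (*Hba-a1*, *Hba-a2* and *Hbb-bt*) listed at 0 in every library.

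**Figure D4:**
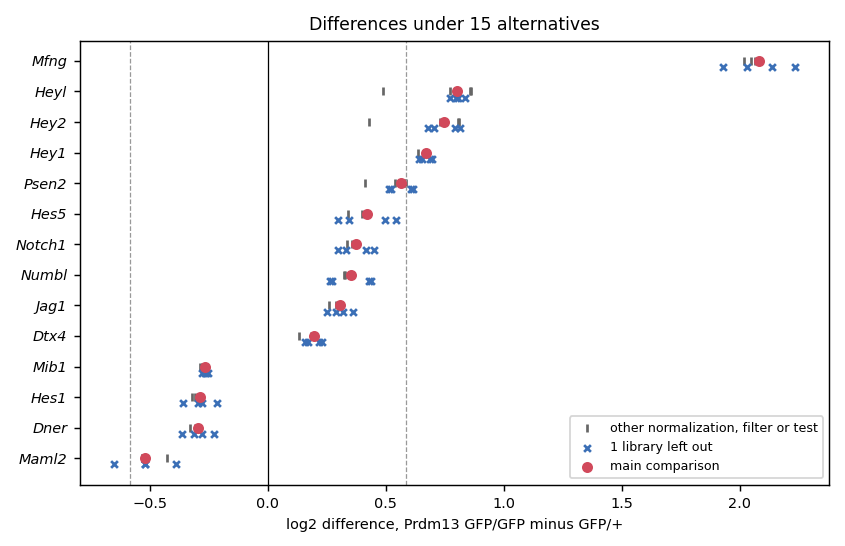
Log2 difference of the 14 genes that passed the adjusted p, in the main comparison and under 15 alternatives, with those that leave out a library drawn as crosses. Dashed lines mark a 1.5-fold change. All 14 kept their sign throughout, and *Mfng* and *Hey1* stayed past the 1.5-fold line in each, while *Hey2* and *Heyl* fell under it with a pseudocount of 1. The libraries of these 14 did not overlap between genotypes, so leaving out 1 library could not turn a sign. Alternatives that change only the filter, prior, block or call rule leave the difference as it is.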

How the data were processed

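RNA-seq of GFP+ cells sorted from E11.5 neural tubes was analysed in 4 libraries, grouped by the genotype and replicate number in the labels. Per the labels and the study's methods, the authors aligned reads with TopHat2 2.1.0 to mm10, counted them on exons of RefSeq genes with featureCounts, normalized them by TMM in edgeR 3.6.8 and deposited RPKM, which were used as deposited. RPKM hides depth, so whole reads were solved from its steps, with GENCODE vM21 exon lengths as a guide. They were whole, within 0.05 of a read, for 19194 of 19200 genes above 0, and these reads serve as depth and for 1 alternative. Whole numbers are what the solution looks for, so this share does not show that the reads are right. The exon length solved with them was within 5% of the annotated one for 71.9% of 17450 genes. The reads of a gene may thus be off by a common factor. Values from few reads are the least precise.

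Genes with a mean of at least 1 RPKM in either genotype entered limma 3.58.1 as log2(RPKM + 0.1) (lmFit, eBayes with a trend) in R 4.3.3. Both scripts were tested on simulated data. For limma, 184 of 200 genes set to change 2-fold were called. Among the 11986 genes tested there, 24 that were set to stay unchanged were called as well. The reads were solved exactly for 2798 of 2877 genes. Tables and plots were made with matplotlib 3.10.9, pandas 2.3.3 and numpy 2.4.6 in Python 3.11.15. The members and the gene lists were chosen with earlier results of these data known. All 41 members are named. Of the other genes, those called were named by rule, at most 4 a list, with *Rbpj* and the proneural genes, of which 1 is not reported here. *Tle1*, *Tle3*, *Tle4*, *Ep300*, *Crebbp*, *Mki67*, *Pax3*, *Rgs5* and *Kcnj8* were chosen after their values were seen. Alternatives were other pseudocounts (1 and 0.01), filters, scalings, priors, call rules and tests, a replicate block and leaving out each library.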

Additional observations from a re-analysis of the deposited data

How the results depend on the processing

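Among the 37 genes, 5 changed sign under some alternative, all with an adjusted p of 0.05 or more: *Notch3* (0.0015) and *Mib2* (0.0035) without the second *Prdm13* GFP/+ library, *Dtx3* (-0.00062) after quantile normalization, *Adam10* without the first *Prdm13* GFP/+ (0.085) or the second *Prdm13* GFP/GFP library (0.028), and *Dll1* after quantile normalization (-0.053) and without the same libraries (-0.021 and -0.026). Leaving out each library in turn moved *Notch3* from -0.20 to 0.0015, *Dll1* from -0.026 to 0.067, *Mib2* from -0.10 to 0.0035 and *Adam10* from -0.10 to 0.085. Among the members' values under the 15 alternatives, 526 kept direction and side of the threshold, 19 lost the call, 2 gained it and 8 changed sign. Alternatives that change only the filter, prior, block or call rule leave the log2 difference as it is, so direction could not turn under them. Without the filter, over 24421 genes, 30 passed both criteria higher and 14 lower, and 0 members (*Mfng* had an adjusted p = 0.0619, the highest of its alternatives, and 17 members an unadjusted p under 0.05 in limma). limma's treat test against 1.5-fold called 131 higher and 77 lower, and among members *Mfng* alone (1). A pseudocount of 1 left 2 members called. Leaving out a library gave 258 to 437 genes called higher and 212 to 266 lower, the lowest of each without the second *Prdm13* GFP/GFP library, 2 members higher throughout, 0 to 1 lower, and a median of 0.085 to 0.18 over the members. limma voom on the solved reads called the same 4 members and put 15 members higher and 6 lower past the adjusted p, against 5 and 2 without the trend in limma. The replicate numbers share no stated source, and deviations of same-numbered libraries correlated at 0.047 across genes. With the number as a replicate block 459 genes were called higher and 342 lower, and 3 members, since *Hey2* was lost. With 2 libraries of 1 pool per genotype, differences between embryos could not be measured.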
